A study of Mus musculus with 16 samples.

Results

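Long noncoding RNAs that stay in the nucleus or that carry small nucleolar RNAs (snoRNAs) in their genes were followed in erythroblasts of mice with and without Ypel4. Of the 8 genes named (Malat1, Neat1, Gas5, Snhg1, Snhg5, Snhg6, Snhg8 and Snhg12), 7 matched by gene name among the 46078 genes listed for each library. Snhg1 was not analysed here by a row of its own, and its locus was followed through 8 snoRNA genes that lie inside it. RNA had been sequenced from polychromatic (Poly-E) and orthochromatic (Ortho-E) erythroblasts of Ypel4+/+ (labelled wild-type) and Ypel4-/- (labelled homozygous mutant) mice, with 4 libraries in each of 4 groups. All 16 samples, wild-type ones too, carry 1 strain entry, which joins C57BL/6N-A<tm1Brd> with the Ypel4 allele name Ypel4<tm1a(EUCOMM)Wtsi>/WtsiIeg. The cells were sorted by CD44 and Ter119 from steady-state bone marrow of untreated mice, whose age was not given in the sources used here.

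Malat1 and Neat1 are abundant nuclear RNAs of mammalian cells. Malat1 gathers in nuclear speckles, which store splicing factors, while Neat1 is the scaffold around which paraspeckles form. A snoRNA host gene works in another way: its introns release snoRNAs, which guide the chemical modification of ribosomal RNA in the nucleolus, and its spliced transcript often has no known product, is exported and is degraded by nonsense-mediated decay during translation. Many host transcripts begin with a run of pyrimidines, the mark by which growth signals control the translation of ribosomal protein mRNAs. Between the Poly-E and Ortho-E stages the erythroblast nucleus condenses before it is expelled, and ribosome production declines.

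The snoRNAs below are shown because reads on them stand in for Snhg1, or because they are the products of the hosts described. Box C (TGATGA) and box D (CTGA), the elements that bind the proteins of a C/D snoRNA, are in capitals where they were found within 20 bases of the 5′ or 3′ end. In H/ACA snoRNAs the capitals mark the ACA that precedes the last 3 bases. Among 27 snoRNA genes inside the 8 loci, 18 held both box C and box D and 4 of the others held this ACA. Sequences are those of GENCODE M21 (GRCm38), 5′ to 3′. The first 5 lie in the Snhg1 locus on the plus strand of chromosome 19, at chr19:8723993-8724064 for Gm25855, chr19:8724531-8724602 for Gm24452, chr19:8725341-8725409 for Gm22680, chr19:8725594-8725660 for Gm23246 and chr19:8725866-8725991 for Snord22, in which box C was not found as these letters.
Gm25855: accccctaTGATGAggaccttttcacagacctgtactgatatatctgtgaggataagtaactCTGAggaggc
Gm24452: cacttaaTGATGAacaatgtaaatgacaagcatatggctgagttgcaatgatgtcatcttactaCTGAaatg
Gm22680: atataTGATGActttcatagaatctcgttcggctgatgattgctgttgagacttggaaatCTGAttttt
Gm23246: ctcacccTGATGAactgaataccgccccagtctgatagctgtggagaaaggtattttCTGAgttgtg
Snord22: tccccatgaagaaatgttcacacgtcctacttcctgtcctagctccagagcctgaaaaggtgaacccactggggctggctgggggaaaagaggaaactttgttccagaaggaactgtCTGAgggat
From the other hosts come Snord47 of Gas5 (chr1:161038082-161038158, plus strand), Snord50a and Snord50b of Snhg5 (chr9:88521529-88521600 and chr9:88521797-88521868, minus strand), Snord87 of Snhg6 (chr1:9942463-9942549, minus strand), and the H/ACA snoRNAs Snora24 of Snhg8 (chr3:123507937-123508066, minus strand) and Snora61 of Snhg12 (chr4:132310240-132310369, plus strand). Snord50a and Snord50b differ at 1 of 72 bases, C50A, counted from 1 at the 5′ end with the base of Snord50a first.
Snord47: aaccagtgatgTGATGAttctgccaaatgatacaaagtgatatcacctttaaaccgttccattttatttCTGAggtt
Snord50a: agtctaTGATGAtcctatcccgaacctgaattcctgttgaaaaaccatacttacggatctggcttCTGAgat
Snord50b: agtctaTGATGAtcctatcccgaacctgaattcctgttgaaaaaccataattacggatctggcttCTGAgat
Snord87: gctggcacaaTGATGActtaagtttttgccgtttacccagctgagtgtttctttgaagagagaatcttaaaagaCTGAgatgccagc
Snora24: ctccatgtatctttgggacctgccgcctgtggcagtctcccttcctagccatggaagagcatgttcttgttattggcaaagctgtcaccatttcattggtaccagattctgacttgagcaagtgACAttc
Snora61: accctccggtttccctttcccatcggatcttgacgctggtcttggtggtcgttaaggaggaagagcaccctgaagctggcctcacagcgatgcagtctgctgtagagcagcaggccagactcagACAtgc

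Malat1 has no snoRNA. Its primary transcript is cut near the 3′ end, where an encoded tract of adenines folds with upstream stretches of uridines into a triple helix that protects the RNA in place of a poly(A) tail. The bases from 6614 to 6705 of its 6983-base transcript (chr19:5795968-5796059, minus strand, GRCm38) are shown because the libraries were selected for poly(A). The run of 12 A is in capitals, and its part in the counts was not tested.
Malat1 end: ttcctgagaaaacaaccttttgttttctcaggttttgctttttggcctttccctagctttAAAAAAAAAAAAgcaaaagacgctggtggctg

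A run of pyrimidines was looked for around each start of transcription. The windows below are taken from RefSeq promoters (GRCm38.p6) and run from 20 bases before the annotated start to 29 after it, with the longest run of at least 6 pyrimidines (C or T on the gene's strand) that begins between 10 bases before and 15 after the start in capitals. Such a run was found at the starts of Gas5 (the second of 2 entries), Snhg1, Snhg5, Snhg8 and Snhg12, and neither at Malat1 nor at the first entry of Gas5, while no window for Neat1 or Snhg6 was given. Of 32851 starts, 26.6% held one. The windows shown lie at chr1:161035146-161035195 for Gas5, chr19:8723467-8723516 for Snhg1 and chr4:132308658-132308707 for Snhg12 on the plus strand, and at chr9:88522868-88522917 for Snhg5, chr3:123508307-123508356 for Snhg8 and chr19:5802643-5802692 for Malat1 on the minus strand.
Gas5: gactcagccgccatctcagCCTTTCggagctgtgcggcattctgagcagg
Snhg1: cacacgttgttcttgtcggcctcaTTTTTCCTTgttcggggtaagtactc
Snhg5: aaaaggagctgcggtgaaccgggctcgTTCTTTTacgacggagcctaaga
Snhg8: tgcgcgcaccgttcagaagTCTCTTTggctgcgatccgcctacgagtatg
Snhg12: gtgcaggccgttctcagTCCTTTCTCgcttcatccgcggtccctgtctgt
Malat1: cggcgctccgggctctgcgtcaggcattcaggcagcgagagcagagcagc

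Depth ranged from 2670173 to 12451234 counts per library. Ypel4 itself was measured at 490 to 716 CPM (counts scaled to a common library size, here by TMM) in Ypel4+/+ and 9.90 to 23.6 in Ypel4-/- Poly-E, and at 4432 to 5440 and 175 to 224 CPM in Ortho-E, so every library matched its genotype label. Erythroid markers were at 59714 to 72613 CPM in summed level in Poly-E and at 248610 to 340315 in Ortho-E. Globin transcripts took 5.36% to 6.43% of the counts in Poly-E and 10.7% to 13.9% in Ortho-E. The factors by which TMM rescaled library sizes differed more, at 1.45 to 1.64 in Poly-E and 0.606 to 0.726 in Ortho-E. Which transcripts made up this difference was not tested. With globin genes left out, the TMM median log2 fold change in Ypel4+/+ was still -0.19. Values are given on 2 scales. TMM, the main one, sets most genes to no change, while division by the library total asks what share of all counted RNA a gene holds. The choice moved the median log2 fold change of all genes between Ortho-E and Poly-E in Ypel4+/+ mice from -0.19 to -1.45, and for Ypel4-/- from -0.09 to -1.47. In bulk RNA from sorted cells, fewer cells of a type and less RNA per cell cannot be told apart.

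Malat1 was the most abundant of the 7 genes in every group when counts were set against exon length. In Ypel4+/+ Poly-E it held 133 ± 64.9 CPM per kb (SD, n = 4, TMM), followed by Snhg5 with 39.9 ± 5.15, Gas5 with 29.3 ± 4.97 and Snhg8 with 25.4 ± 3.32 CPM per kb. The library ranges of Snhg5 and Gas5, and those of Gas5 and Snhg8, overlapped in this group. Neat1, which has an exon of 20771 bases, held 5.14 ± 0.905 CPM per kb, Snhg12 2.09 ± 0.541 and Snhg6 0.813 ± 0.296. Exon length here joins all annotated exons, from 53.1% of the gene's span (Snhg6) to 100% (Malat1, Neat1 and Snhg8). Ranks between genes depend on this annotated length, whichever forms of an RNA were present. The order had changed in Ypel4+/+ Ortho-E, where Gas5 had rank 2 with 79.4 ± 12.4 CPM per kb and Snhg5 had dropped from rank 2 to rank 5 with 13.2 ± 2.19. Snhg8 (35.5 ± 5.43) and Neat1 (27.1 ± 5.20) stood between them with overlapping ranges, and Snhg12 (0.764 ± 0.683) and Snhg6 (0.562 ± 0.534) were last and overlapped too. Among Ypel4-/- libraries Snhg5 also moved from rank 2 to rank 5, from 37.3 ± 2.77 to 8.85 ± 3.48 CPM per kb.

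To follow these RNAs through terminal differentiation, Ortho-E was compared with Poly-E within each genotype. In Ypel4+/+ mice Neat1, Malat1, Gas5 and Snhg8 were higher and Snhg5 and Snhg12 lower in Ortho-E (TMM, edgeR quasi-likelihood test, Benjamini-Hochberg adjusted p at most 0.05). That is 4 of 7 called higher, beside 26.4% of the 11747 genes tested, and 2 of 7 called lower, beside 32.1%. In either direction 6 of 7 were called, beside 58.5%. In Ypel4-/- mice Neat1, Malat1 and Gas5 were higher, 3 of 7 beside 29.5% of 11973 genes, and Snhg5 alone was lower, 1 of 7 beside 31.5%, which makes 4 of 7 in either direction beside 61%. The median log2 fold change of the 7 genes was 0.53 in Ypel4+/+ and 0.38 in Ypel4-/-, and over all tested genes -0.19 and -0.09. Scaled by library totals, 2 of 7 were higher (Neat1 and Malat1) and 4 lower (Snhg5, Snhg6, Snhg8 and Snhg12) in either genotype, where 10.4% and 11.2% of all genes were called higher and 60.3% and 60.9% lower. Neat1 and Malat1 were thus called higher and Snhg5 lower on both scalings and in both genotypes, and in Ypel4+/+ Snhg12 was called lower on both scalings too. On the TMM scale the libraries of the populations did not overlap for 4 of the 7 genes in either genotype (Malat1, Neat1, Gas5 and Snhg5), a share near that of all genes, 53.2% in Ypel4+/+ and 55.5% in Ypel4-/-.

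**Figure D1:**
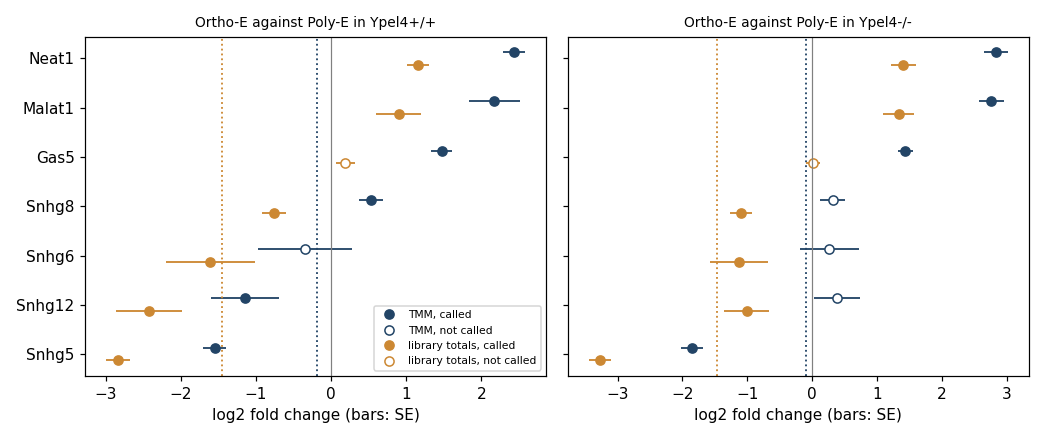
Log2 fold change of Ortho-E over Poly-E (x axis, bars are SE) for the 7 genes (y axis) in Ypel4+/+ and Ypel4-/- mice, with TMM scaling in blue and library-total scaling in orange, filled where the adjusted p was at most 0.05. Dotted lines mark the median of all tested genes on the same scaling. Neat1, Malat1, Gas5 and Snhg8 lie to the right of it and Snhg5 to the left on both scalings and in both genotypes.

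Neat1 (ENSMUSG00000092274), the paraspeckle scaffold, lies at chr19:5824708-5845478 on the minus strand, 22.0 kb from Malat1. Its level in Poly-E was 108, 96, 133 and 90.1 CPM in the 4 Ypel4+/+ libraries and 102, 122, 118 and 87.1 CPM in the 4 Ypel4-/- libraries. In Ortho-E it was 493, 514, 724 and 519 CPM in Ypel4+/+ and 765, 517, 887 and 512 CPM in Ypel4-/-. All 8 Ortho-E libraries lay above all 8 Poly-E libraries. The log2 fold change was 2.43 (SE 0.15, edgeR adjusted p = 2.86e-13) in Ypel4+/+ and 2.83 (SE 0.18, edgeR adjusted p = 1.05e-10) in Ypel4-/-, larger than for 93.1% and 94.6% of the genes tested. By library totals the groups also stayed apart, and the log2 fold change was 1.16 (SE 0.15) and 1.41 (SE 0.19). The 2 processing forms of Neat1, of which only the short one has a poly(A) tail, share their 5′ part and are 1 row here.

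Malat1 (ENSMUSG00000092341), the speckle RNA, is a single exon of 6983 bases at chr19:5795690-5802672 on the minus strand. In Poly-E the 4 Ypel4+/+ libraries held 1595, 827, 640 and 649 CPM and the 4 Ypel4-/- libraries 924, 805, 667 and 662 CPM. Replicate 1 of Ypel4+/+ Poly-E was the highest of the 8. Ortho-E libraries held 4995, 4217, 3487 and 3655 CPM in Ypel4+/+ and 5568, 3023, 5583 and 4093 CPM in Ypel4-/-, each above every Poly-E library. Ortho-E exceeded Poly-E by a log2 fold change of 2.17 (SE 0.34, edgeR adjusted p = 0.000905) in Ypel4+/+ and 2.76 (SE 0.19, edgeR adjusted p = 4.00e-09) in Ypel4-/-, larger than for 90.8% and 94.1% of the genes tested. By library totals it was 0.90 (SE 0.30) and 1.34 (SE 0.24), still called by edgeR (adjusted p = 0.0294 and 0.00115), but in Ypel4+/+ the libraries then overlapped (two-sided exact permutation p = 0.057, where 0.029 is the lowest that 4 against 4 allows). That test took no account of replicate numbers, which paired in Ypel4+/+. Between same-numbered libraries there, with 0.5 CPM added, the log2 difference by library totals was 0.39, 1.11, 1.28 and 1.16. Of the bases of Malat1 13.8% are shared with 3 other annotated genes, all with 0 counts. Reads on the bases shared by 2 genes had not been counted.

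Where called, markers of other marrow cells moved in the same direction as Malat1 and Neat1 on the TMM scale. Of 14 myeloid markers, 7 could be tested in Ypel4+/+ and 3 were called higher in Ortho-E (S100a8 and Ltf of granulocytes, C1qb of macrophages), and of 11 tested in Ypel4-/- 7 were higher, none being lower in either. By library totals 1 of 7 and 1 of 11 were higher, near the share of all genes. In Ypel4+/+ 0 of the 7 were lower on that scale, where 60.3% of all genes were. The median log2 fold change of these 7 was 0.89 by library totals, beside -1.45 over all genes, and 2.14 by TMM, beside -0.19. Of all genes tested, 26.4% in Ypel4+/+ and 29.5% in Ypel4-/- were higher by TMM. By library totals 10.4% and 11.2% were higher and 60.3% and 60.9% lower. The summed level of the myeloid markers was 3.57 to 4.43 CPM in Ypel4+/+ and 2.88 to 6.68 in Ypel4-/- Poly-E, and 7.43 to 22.6 and 7.79 to 20.02 CPM in Ortho-E. By library totals the summed level overlapped between the populations, at 4.50 to 10.2 CPM over the Poly-E and 4.87 to 14.0 over the Ortho-E libraries. Elane was at 0 in 3 of the 4 groups, all but Ypel4+/+ Poly-E, and Lyz2, with the highest count of the list, had a log2 fold change of 0.97 (edgeR adjusted p = 0.057) in Ypel4+/+ and 1.81 (edgeR adjusted p = 0.000174) in Ypel4-/-. Adgre1, a macrophage gene, was tested in Ypel4-/- alone with 3.78 (SE 0.94). Of 12 lymphoid and megakaryocyte markers, 3 of 6 tested and 6 of 7 tested were higher (1 and 1 by library totals, with 3 and 0 lower), their summed level being 32.9 to 46.4 CPM in Poly-E and 107 to 142 CPM in Ortho-E. Itga2b, the platelet integrin chain, had the highest count of the list and rose with a log2 fold change of 2.24 (SE 0.14) and 2.52 (SE 0.15). It went from 20.8 to 95.9 CPM in Ypel4+/+ and from 17.8 to 92.3 CPM in Ypel4-/-, and so made up most of the summed TMM level in Ortho-E. Other platelet genes did not follow it: Pf4, with 7 counts in all, was at 0 in both Ortho-E groups. Ppbp, with 31 counts in all, was at 0 in Ypel4-/- Ortho-E. Cd79b and Ms4a1 of B cells rose by 1.09 and 0.92 in Ypel4+/+ and by 0.92 and 1.27 in Ypel4-/-. Cd3e was at 0 in all 4 groups. The part of such cells in the Malat1 and Neat1 values was not tested.

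**Figure D2:**
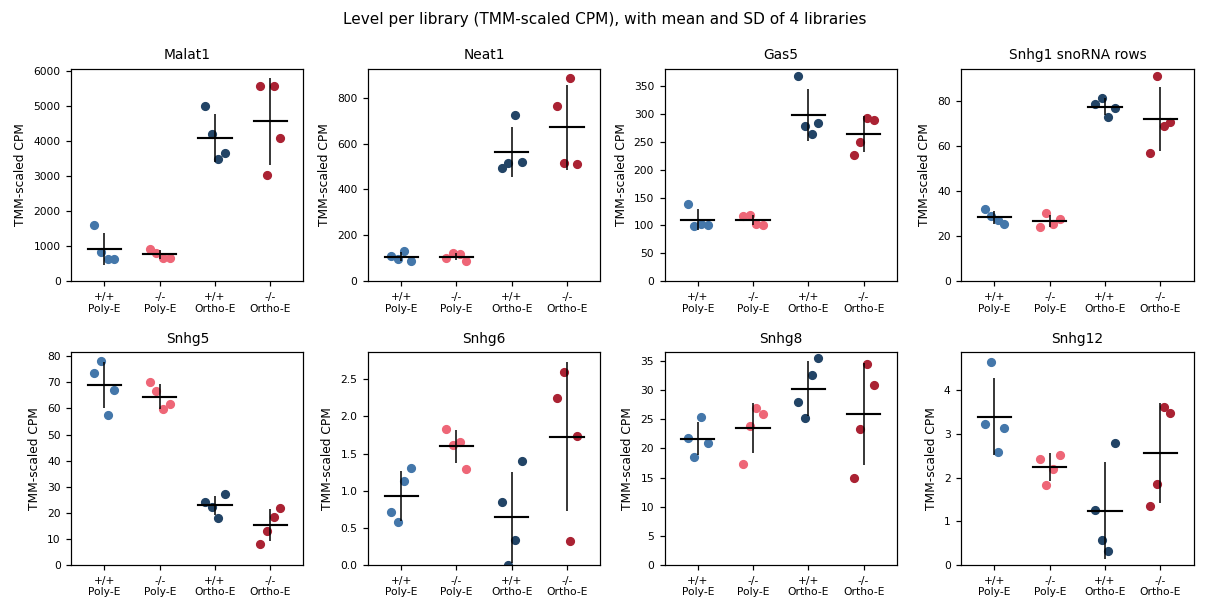
TMM-scaled CPM (y axes, from 0) of the 7 genes and of the summed snoRNA rows of the Snhg1 locus in the 4 libraries of each group (x axis, genotype and population); points are libraries, horizontal lines means and vertical lines SD. Ortho-E libraries lie above Poly-E libraries for Malat1, Neat1, Gas5 and the Snhg1 rows, below them for Snhg5, and overlap with them for Snhg6, Snhg8 and Snhg12.

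Gas5 (ENSMUSG00000053332; chr1:161034422-161038539, plus strand), the host that accumulates when growth stops, carries 10 genes of snoRNA type. Its Poly-E libraries held 138, 99.3, 103 and 101 CPM in Ypel4+/+ and 118, 119, 103 and 101 CPM in Ypel4-/-. In Ortho-E the values were 368, 278, 265 and 284 CPM in Ypel4+/+ and 226, 249, 293 and 288 CPM in Ypel4-/-, with no overlap between populations. The log2 fold change was 1.47 (SE 0.14, edgeR adjusted p = 4.43e-10) in Ypel4+/+ and 1.43 (SE 0.12, edgeR adjusted p = 1.71e-12) in Ypel4-/-, larger than for 82.3% and 79.5% of the genes tested. As a share of all counted RNA, Gas5 was at 200, 153, 154 and 157 CPM of the library total in Ypel4+/+ Poly-E, against 223, 182, 176 and 176 in Ortho-E. The log2 fold change on that scale was 0.19 (SE 0.13, edgeR adjusted p = 0.176) in Ypel4+/+ and 0.01 (SE 0.11, edgeR adjusted p = 0.938) in Ypel4-/-. Between libraries of the same replicate number, which paired in Ypel4+/+ but not in Ypel4-/-, the log2 difference by library totals was 0.16, 0.25, 0.20 and 0.17 in Ypel4+/+ and -0.24, -0.12, 0.21 and 0.19 in Ypel4-/-. With replicate number as a block on this scale, an alternative added after seeing the data, Gas5 was called higher in Ypel4+/+ (0.19, SE 0.08, edgeR adjusted p = 0.0229) and not in Ypel4-/- (0.02, SE 0.09, edgeR adjusted p = 0.866).

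The 8 snoRNA genes of the Snhg1 locus (chr19:8723475-8726443, plus strand, GENCODE M21) held 3897 counts over the 16 libraries. They lie wholly in annotated Snhg1 exons, as would any position there, since these exons together cover all 2969 bases of the locus. The sum of the 8 snoRNA genes was 32.3, 28.8, 27.1 and 25.7 CPM in Ypel4+/+ and 24.1, 30.4, 25.4 and 27.8 CPM in Ypel4-/- Poly-E. In Ortho-E it was 79, 81.7, 72.9 and 77 CPM in Ypel4+/+ and 57.1, 91.2, 69.2 and 71 CPM in Ypel4-/-, above all Poly-E values. The mean log2 difference was 1.44 in Ypel4+/+ and 1.39 in Ypel4-/- (exact permutation, p = 0.029 in each, two-sided), but 0.20 (p = 0.029) and 0.16 (p = 0.286) by library totals in the same exact test. Taken singly on the TMM scale, 6 of the 8 rows were called higher by edgeR in Ypel4+/+ (beside 26.4% of all genes) and 7 of 8 in Ypel4-/- (beside 29.5%). The rows are parts of 1 locus, so these are not 8 separate results. Over the 8 rows log2 fold changes ran from 1.16 (Gm25894) to 1.96 (Gm25855) and from 1.16 (Gm25894) to 2.03 (Gm25855). Calls of single rows by library totals are not given here. Gm24452, the row with most counts, went from 5.54 ± 1.38 to 16.5 ± 1.76 CPM (SD, n = 4) in Ypel4+/+ mice. Snord22 went from 5.07 ± 0.992 to 14.4 ± 1.14 CPM there. Whether these reads came from the host transcript, its introns or the snoRNAs themselves cannot be told apart from counts per gene.

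Snhg8 (ENSMUSG00000104960; chr3:123507552-123508404, minus strand), the host of Snora24, stood at 21.7, 18.6, 25.4 and 21 CPM in Ypel4+/+ and 17.4, 23.9, 26.9 and 25.9 CPM in Ypel4-/- Poly-E. Its Ortho-E values were 27.9, 25.1, 32.6 and 35.4 CPM in Ypel4+/+ and 14.8, 23.4, 34.5 and 30.9 CPM in Ypel4-/-. The groups overlapped in both genotypes. The log2 fold change of 0.53 (SE 0.16, edgeR adjusted p = 0.00609) was called in Ypel4+/+, and that of 0.31 (SE 0.19, edgeR adjusted p = 0.153) was not in Ypel4-/-. By library totals its direction turned, to -0.76 (SE 0.16) and -1.10 (SE 0.18), both called by edgeR, so that Snhg8 held a smaller share of the counted RNA in Ortho-E. It fell less than the median gene on that scale, which had -1.45 and -1.47. Its TMM log2 fold change was larger than for 66.4% and 59.1% of the genes tested.

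Snhg5 (ENSMUSG00000097195; chr9:88521050-88522929, minus strand), which carries Snord50a and Snord50b, fell on either scaling. In Poly-E it held 73.6, 78, 57.5 and 67.1 CPM in Ypel4+/+ and 70.2, 66.6, 59.6 and 61.7 CPM in Ypel4-/-. In Ortho-E 24.1, 22.3, 18 and 27.1 CPM were left in Ypel4+/+ and 8.1, 13, 18.4 and 21.8 CPM in Ypel4-/-. No Ortho-E library reached the lowest Poly-E library. The log2 fold change was -1.55 (SE 0.15, edgeR adjusted p = 1.72e-09) in Ypel4+/+ and -1.86 (SE 0.17, edgeR adjusted p = 3.26e-11) in Ypel4-/-, above only 18.8% and 10.5% of the genes tested. By library totals it was -2.84 (SE 0.16) and -3.27 (SE 0.17).

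Snhg12 (ENSMUSG00000086290; chr4:132308678-132311024, plus strand) hosts mostly H/ACA snoRNAs and was counted 261 times over all libraries. Its values in Ypel4+/+ were 3.23, 4.64, 2.58 and 3.13 CPM in Poly-E against 1.27, 0.571, 0.333 and 2.8 CPM in Ortho-E, and in Ypel4-/- 2.44, 1.82, 2.21 and 2.52 against 1.35, 1.85, 3.61 and 3.47 CPM. The Ortho-E libraries of Ypel4+/+ had only 1 to 12 counts each. Between them the log2 fold change was -1.14 (SE 0.46, edgeR adjusted p = 0.0332) in Ypel4+/+ and 0.38 (SE 0.36, edgeR adjusted p = 0.365) in Ypel4-/-. The call in Ypel4+/+ was lost when any of 6 of the 8 libraries was left out, namely replicates 1, 2 and 4 of Poly-E or 1, 2 and 3 of Ortho-E, and also under DESeq2 (adjusted p = 0.0648). The log2 fold change itself ran from -2.14, without replicate 4 of Ortho-E, to -0.80, without replicate 3 of Ortho-E.

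Snhg6 (ENSMUSG00000098234; chr1:9941959-9944118, minus strand), the host of Snord87, had 127 counts in all. It was at 0.718, 0.581, 1.12 and 1.3 CPM in Ypel4+/+ and 1.83, 1.62, 1.66 and 1.29 CPM in Ypel4-/- Poly-E. Its Ortho-E values were 0.845, 0, 0.333 and 1.4 CPM in Ypel4+/+ and 2.25, 2.6, 0.328 and 1.74 CPM in Ypel4-/-, with 0 to 9 counts a library. Its log2 fold change was -0.34 (SE 0.62) and 0.26 (SE 0.45), neither being called. By library totals it was -1.60 (SE 0.59) and -1.13 (SE 0.45), beside -1.45 and -1.47 for the median gene. Both were called lower (edgeR adjusted p = 0.0184 and 0.025), so that the direction of Snhg6 in Ypel4-/- turned with the scaling. Of its exon bases 11.1% are shared with Mcmdc2 on the other strand, and the counting used no strand.

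**Figure D3:**
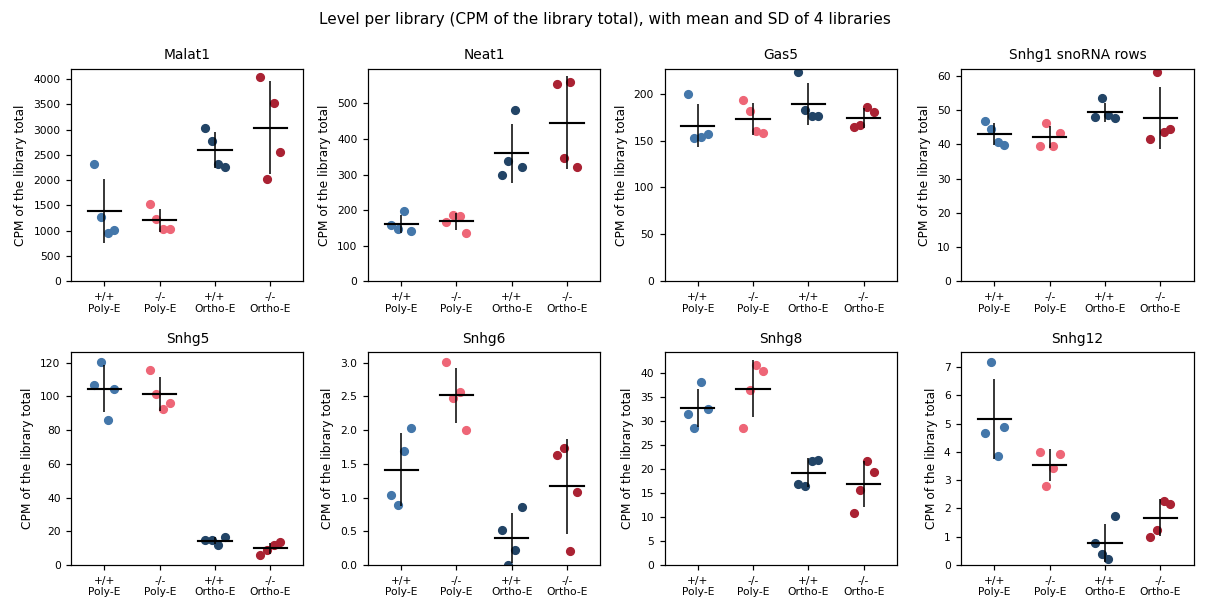
The same libraries as CPM of the library total (y axes, from 0), by group (x axis); points are libraries, horizontal lines means and vertical lines SD. On this scale the log2 differences of Gas5 and the Snhg1 rows are at most 0.20, Neat1 stays higher in Ortho-E, and Snhg5, Snhg8, Snhg12 and Snhg6 are lower in Ortho-E.

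Counts set against each other within a library need no scaling. For every Snhg5 count there were 1.88, 1.27, 1.79 and 1.5 Gas5 counts in Ypel4+/+ Poly-E and 15.3, 12.5, 14.7 and 10.5 in Ypel4+/+ Ortho-E. In Ypel4-/- mice this ratio went from 1.64 to 1.78 in Poly-E to between 13.2 and 27.9 in Ortho-E, its highest value being in replicate 1. These 2 snoRNA hosts thus moved apart. Snhg1 rows and Gas5 had overlapping proportions in all 4 groups, with 0.261 ± 0.0234 (SD, n = 4) Snhg1 counts per Gas5 count in Ypel4+/+ Poly-E and 0.264 ± 0.0340 in Ortho-E, and 0.245 ± 0.0299 and 0.275 ± 0.0612 in Ypel4-/-. Malat1 counts per Gas5 count went from 8.14 ± 2.46 to 13.7 ± 1.02 in Ypel4+/+, and in Ypel4-/- from 6.91 ± 0.636 to 17.5 ± 5.55, without overlap. Malat1 counts per Neat1 count were 4.83 to 14.7 in Poly-E and 4.82 to 10.1 in Ortho-E of Ypel4+/+, so their ranges overlapped.

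**Figure D4:**
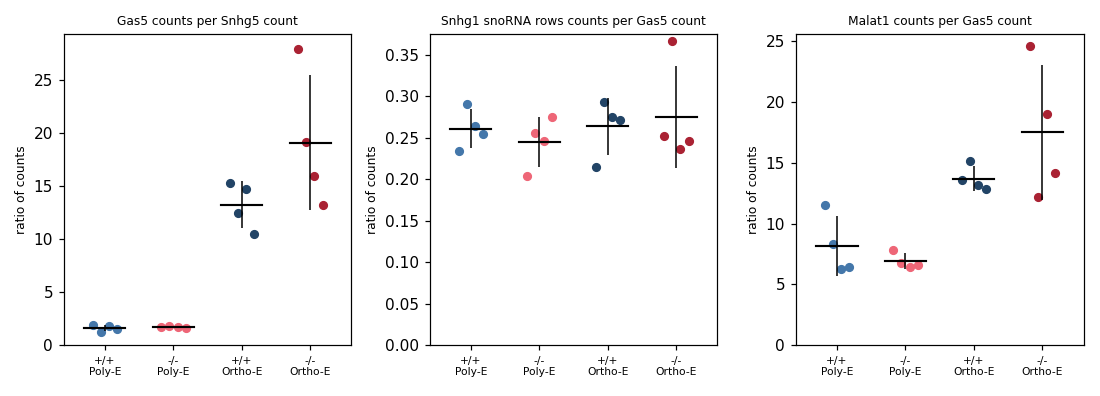
Ratios of counts within each library (y axes, from 0) by group (x axis); points are libraries, horizontal lines means and vertical lines SD of 4 libraries. The ratio of Gas5 to Snhg5 is at most 1.88 in Poly-E and at least 10.5 in Ortho-E, that of the Snhg1 rows to Gas5 overlaps in all 4 groups, and that of Malat1 to Gas5 is higher in Ortho-E.

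Library names give both populations of a replicate a common number. On the TMM scale, with 0.5 CPM added, the log2 difference between Ortho-E and Poly-E libraries of 1 number ran from 1.65 to 2.49 for Malat1 in Ypel4+/+, and in Ypel4-/-, where the numbers were not accepted as pairs, from 1.91 to 3.06. It ran from 2.18 to 2.52 and from 2.08 to 2.91 for Neat1, and from 1.36 to 1.49 and from 0.94 to 1.51 for Gas5. For Snhg5 it ran from -1.78 to -1.30 and from -3.04 to -1.48. Since the populations of these 4 genes did not overlap on this scale, any way of joining the libraries gives the same signs.

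Over the 16 libraries, the genes whose log2 CPM followed each RNA most closely were sought among 5279 genes that averaged 50 counts or more. Closest to Malat1 were Ddx5 (r = 0.986), an RNA helicase, Son (r = 0.985), a core protein of nuclear speckles, and Dusp11 (r = 0.984). Closest to Neat1 were Gm15774 (r = 0.989), Tmem86b (r = 0.987) and Atp6v0d1 (r = 0.984), and to Gas5 Asun (r = 0.991), Zwint (r = 0.989) and Ddx5 (r = 0.989). Snhg5 ran with Cstf1 (r = 0.984), Usp5 (r = 0.983) and Stub1 (r = 0.982). Snhg8 came nearest to Slc4a2 (r = 0.867), Spsb3 (r = 0.859) and Gt(ROSA)26Sor (r = 0.854), while Snhg12 did so to Mdm2 (r = 0.832), Pigm (r = 0.816) and Ikzf5 (r = 0.799), and Snhg6 to Ccdc55 (r = 0.821), Snrpc (r = 0.773) and Cdk5rap1 (r = 0.762). These correlations include the difference between the populations. Within groups, as deviations from the group mean over the same 16 libraries, Gas5 went with Malat1 (r = 0.663) and Snhg5 (r = 0.576) and hardly with Neat1 (r = -0.0469), Snhg5 with Snhg12 (r = 0.751) and Snhg8 (r = 0.561), and Malat1 with Neat1 at r = 0.244. All points share their library's depth and scaling factor, and the deviations also hold a split of replicates 1 and 2 from 3 and 4. Malat1 was higher in replicates 1 and 2 than in 3 and 4 in both Poly-E groups and in Ypel4+/+ Ortho-E, but not in Ypel4-/- Ortho-E. The correlations are given as a description.

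The counts of the lists that follow stand beside those of all genes tested, of which 26.4% in Ypel4+/+ and 29.5% in Ypel4-/- were higher and 32.1% and 31.5% lower by TMM, and 10.4% and 11.2% higher and 60.3% and 60.9% lower by library totals. Other snoRNA host lncRNAs moved in both directions. Of 13 with a row, 6 could be tested in Ypel4+/+ and 7 in Ypel4-/-, with 2 higher and 1 lower, and 2 higher and 0 lower, by TMM, and 0 higher with 1 and 3 lower by library totals. Zfas1, the host with the highest count of this list, rose from 25 ± 4.12 to 49 ± 6.52 CPM in Ypel4+/+ (log2 fold change 1.01, SE 0.16) and by 0.80 (SE 0.14) in Ypel4-/-. Snhg14, at 0.678 ± 0.417 CPM in Ypel4+/+ Poly-E, had log2 fold changes of 1.92 (SE 0.58) and 1.70 (SE 0.67), both called, and Snhg20 fell by 3.12 (SE 1.14) in Ypel4+/+ from 0.895 CPM, a call that DESeq2 did not make. In Ypel4-/- Snhg20 had -0.68 (SE 0.80, edgeR adjusted p = 0.484). The median log2 fold change of the tested hosts was 0.19 and 0.26, beside -0.19 and -0.09 over all genes.

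Protein-coding snoRNA hosts, mostly genes of ribosomal proteins and translation, were called lower more often than higher. Of 23 tested, 2 were higher and 14 lower in Ypel4+/+ (beside 26.4% and 32.1% of all genes), and 1 higher and 17 lower in Ypel4-/- (beside 29.5% and 31.5%), with medians of -0.55 and -0.90. By library totals 22 and 23 of 23 were lower, beside 60.3% and 60.9%, and 0 higher. Rcc1, the exchange factor of Ran, fell by 2.11 (SE 0.17) and 2.01 (SE 0.20) on the log2 scale, and Rpsa, a protein of the small ribosomal subunit, fell by 1.72 (SE 0.14) and 2.02 (SE 0.15). Eef2, the elongation factor, had 0.64 (SE 0.12) and 0.68 (SE 0.11), both called, and Tpt1, with the highest count, 0.31 (SE 0.12, called) and 0.24 (SE 0.11, not called). Proteins that build snoRNA particles were lower in 6 of 13 and 8 of 13 cases and higher in 2 and 1, with medians of -1.52 and -1.27, beside the same shares of all genes, and lower in 11 and 12 of 13 by library totals. Nhp2l1, which binds the box C/D motif, fell by 2.28 (SE 0.26) and 1.98 (SE 0.22), and Ruvbl1, an ATPase of their assembly, by 2.13 (SE 0.33) and 2.40 (SE 0.30). Dkc1, the pseudouridine synthase of H/ACA particles, was the exception with 0.61 (SE 0.13) and 0.92 (SE 0.14), together with Nop10 at 1.11 (SE 0.41) in Ypel4+/+, where it was called.

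The proteins that share bodies with Malat1 and Neat1 moved in both directions. Of 12 paraspeckle proteins, 3 were higher in either genotype, near the 26.4% and 29.5% of all genes, and 8 lower, beside 32.1% and 31.5%, with medians of -0.996 and -0.79. By library totals 1 was higher and 11 lower, where 60.3% and 60.9% of all genes were lower. Nono, a core protein on Neat1, went from 226 ± 6.85 to 52.8 ± 4.42 CPM in Ypel4+/+ (log2 fold change -2.06, SE 0.12) and fell by 2.19 (SE 0.14) in Ypel4-/-. Rbm14 went the other way, from 35.5 ± 4.87 to 157 ± 2.32 CPM (2.18, SE 0.13), with 2.44 (SE 0.14) in Ypel4-/-, and Hnrnpk, with the highest count, fell by 0.72 (SE 0.11) and 0.59 (SE 0.11). Of 12 nuclear speckle proteins, 4 were higher and 6 lower in Ypel4+/+ (beside 26.4% and 32.1% of all genes) and 5 and 6 in Ypel4-/- (beside 29.5% and 31.5%), with medians of -0.42 and -0.21, and 1 higher and 11 lower by library totals. Srsf5, a splicing factor, went from 427 ± 34.4 to 1421 ± 168 CPM in Ypel4+/+ (1.77, SE 0.13), while Ddx39b, an RNA helicase of splicing and export, fell by 2.06 (SE 0.13). Their values in Ypel4-/- were 1.93 (SE 0.13) and -1.88 (SE 0.15).

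Among 14 factors of nonsense-mediated decay, which degrades host transcripts, 1 was higher and 8 lower in Ypel4+/+ (beside 26.4% and 32.1% of all genes) and 4 higher and 8 lower in Ypel4-/- (beside 29.5% and 31.5%), with medians of -0.77 and -0.57. The 4 higher in Ypel4-/- are near the share of all genes. By library totals 1 was higher and 13 lower in each, beside 60.3% and 60.9% lower. Smg6, the endonuclease of the pathway, rose from 66.9 ± 8.59 to 346 ± 32.1 CPM in Ypel4+/+ (log2 fold change 2.41, SE 0.13) and by 2.65 (SE 0.12) in Ypel4-/-. Eif4a3 of the exon junction complex fell by 1.77 (SE 0.14) and 1.73 (SE 0.15), and Smg8 by 1.33 (SE 0.46) and 2.21 (SE 0.56). Upf1, the helicase at the centre of the pathway and the one with the highest count, had 0.05 (SE 0.14) in Ypel4+/+ and 0.38 (SE 0.13, called) in Ypel4-/-. Other nuclear lncRNAs gave 2 higher and 1 lower of 9 tested in Ypel4+/+ and 3 higher and 1 lower in Ypel4-/-, and 0 higher and 4 lower by library totals. Their higher calls by TMM are near the 26.4% and 29.5% of all genes. Ftx, of the X-inactivation centre, fell by 2.02 (SE 0.25) and 1.47 (SE 0.23), and Tug1, with the highest count, had 0.24 (SE 0.13, not called) and 0.37 (SE 0.14, called). Rpph1, the RNA of RNase P, with 73 counts in all, rose by 1.70 (SE 0.60) and 3.09 (SE 0.76), to 3.05 ± 2.85 CPM in Ypel4-/- Ortho-E. Trp53cor1, a target of p53, with 45 counts in all, rose by 1.98 (SE 0.65) in Ypel4+/+. In Ypel4-/- it had 1.69 (SE 0.80, edgeR adjusted p = 0.068, not called). Among 13 erythroid markers, 10 were higher and 3 lower in Ypel4+/+ and 10 and 2 in Ypel4-/-: Bpgm, a red cell enzyme, rose by 4.19 (SE 0.41) and 4.54 (SE 0.15), Hbb-bs, a globin chain, by 2.45 (SE 0.13) and 2.41 (SE 0.11), and Cd44, used for the sort, fell by 1.27 (SE 0.47) and 1.59 (SE 0.46).

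Loss of Ypel4 gave no call among the 7 genes. In Poly-E 0 of 7 were called higher or lower by edgeR, beside 1 of 12395 genes (0.00807%; 4 genes with replicate number as a block), and in Ortho-E 0 of 7 beside 3 of 10521 (0.0285%, of which 0.0095% higher and 0.019% lower). Unadjusted, 271 and 387 genes had p under 0.05, and DESeq2 called 2 and 4 genes, none of them a member. In Poly-E the log2 fold changes of Ypel4-/- over Ypel4+/+ were 0.00 (SE 0.13) for Neat1, -0.27 (SE 0.32) for Malat1, 0.00 (SE 0.12) for Gas5, 0.12 (SE 0.14) for Snhg8, -0.09 (SE 0.12) for Snhg5, -0.50 (SE 0.26) for Snhg12 and 0.62 (SE 0.35) for Snhg6. In Ortho-E they were 0.28 (SE 0.25) for Neat1, 0.18 (SE 0.24) for Malat1, -0.16 (SE 0.11) for Gas5, -0.21 (SE 0.18) for Snhg8, -0.52 (SE 0.20) for Snhg5, 0.93 (SE 0.52) for Snhg12 and 1.13 (SE 0.68) for Snhg6. Each adjusted p was 0.996 in Ortho-E and above that in Poly-E. Among the genes of the other lists above, 0 were called between the genotypes in either population by edgeR, and 0 by DESeq2, while an unadjusted edgeR p under 0.05 was seen for at most 1 gene of a list in Poly-E and 3 genes of a list in Ortho-E. A p that misses the threshold does not show equal levels, least so for Snhg6 and Snhg12 in Ortho-E, where the SE was largest.

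**Figure D5:**
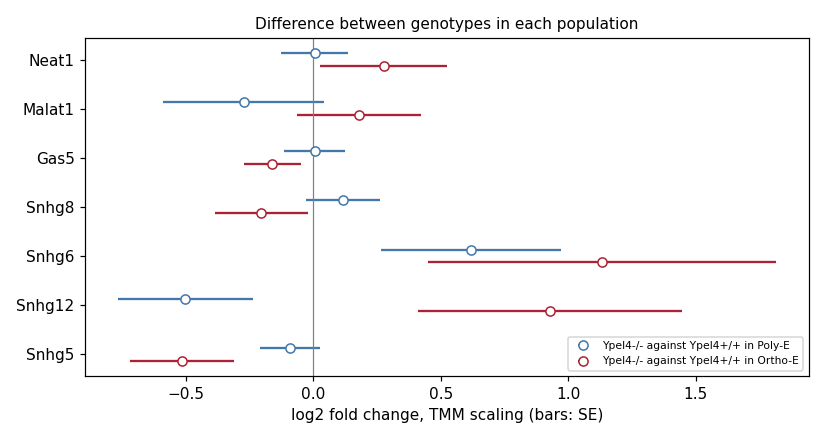
Log2 fold change of Ypel4-/- over Ypel4+/+ (x axis, TMM scaling, bars are SE) for the 7 genes (y axis) in Poly-E (blue) and Ortho-E (red), with open points because none was called. The points lie within 0.62 of 0 in Poly-E, and the widest bars are those of Snhg6 and Snhg12 in Ortho-E.

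Snhg12 and Snhg5 were looked at library by library. Snhg12 was lower in each Ypel4-/- Poly-E library (1.82 to 2.52 CPM) than in each Ypel4+/+ library (2.58 to 4.64 CPM; exact permutation, two-sided p = 0.029), where 2.09% of all tested genes did not overlap, but by library totals the groups overlapped (p = 0.086). In Ortho-E 0 of the 7 genes kept the genotypes apart, beside 2.35%. Snhg5 in Ortho-E was at 15.3 ± 6.03 CPM in Ypel4-/- and 22.9 ± 3.79 CPM in Ypel4+/+ (SD, n = 4), with an overlap (exact permutation test, two-sided p = 0.086) and an unadjusted edgeR p of 0.0173. Its lowest library, replicate 1, had 18 counts. The summed Snhg1 rows differed by -0.08 in Poly-E and -0.12 in Ortho-E on the log2 scale (exact permutation p = 0.457 and 0.486). Whether the step from Poly-E to Ortho-E depended on genotype was tested by the interaction in all 16 libraries. It gave 0 calls among 13318 genes by edgeR, 364 with an unadjusted p under 0.05, and 1 by DESeq2. Snhg12 had the largest value of the 7, 1.42 (SE 0.58, unadjusted p = 0.0187, edgeR adjusted p over 0.99), and those of the others ran from -0.43 (SE 0.25) for Snhg5 to 0.50 (SE 0.76) for Snhg6. The Snhg12 value ran from 1.09, without replicate 3 of Ypel4+/+ Ortho-E, to 2.44, without replicate 4 of that group, and was not called in any of the 16 fits that left out 1 library.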

How the data were processed

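Total RNA from sorted Poly-E and Ortho-E was made into TruSeq RNA v2 libraries, a kit that selects poly(A) RNA. The authors ran nf-core/rnaseq on GRCm38. Their deposited counts are, per the file headers, unnormalized read pairs per gene (exons) from featureCounts 1.6.4, unstranded, leaving out pairs with several alignments or on several genes. Groups and replicate numbers came from the sample titles, and all 16 libraries (2670173 to 12451234 counts) were used. Replicates carry different numbers in the titles, and whether each is a mouse of its own was not stated, so p-values measure the spread between these samples.

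Here counts were tested in R 4.3.3 with the edgeR 4.0.16 quasi-likelihood test (robust, TMM), keeping genes whose libraries in the fit summed to 10 counts or more, and p-values were adjusted over all genes (Benjamini-Hochberg, threshold 0.05). Single values were compared by exact permutation of 4 against 4 libraries on log2(CPM + 0.5), without regard to replicate number. Levels between genes were set per kb of exon. The script was tested on simulated data. Alternatives were DESeq2 1.42.0, its size factors, library totals, other filters, globin genes left out, all 16 libraries in 1 fit, a replicate block, a term for replicates 1 and 2 against 3 and 4, and each library left out. Library totals for the permutation tests or with the block, and the alternatives for the other lists, were added after seeing the data. Members and lists were chosen with earlier results of these data known. Named were all members, of each list the called genes with the lowest and highest log2 fold change between populations and the gene with the highest count, snoRNA genes inside a member, overlapping genes, and the 3 genes most like each member.

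Gene names and positions came from the deposited counts. Of 46078 gene identifiers, 45143 were found in GENCODE M21. Of 19 snoRNA genes inside the 7 members, 16 lie wholly in the member's exons, where the counting leaves them 0 counts.

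Replicate numbers were checked as pairs by the correlation of deviations from group means over 5279 genes. Same-numbered Poly-E and Ortho-E libraries gave 0.416 to 0.605 in Ypel4+/+ and 0.0832 to 0.505 in Ypel4-/-, and the genotypes 0.233 to 0.632 in Poly-E and -0.093 to 0.304 in Ortho-E. Libraries of other numbers gave -0.445 to 0.390 in Ypel4+/+, below every same-numbered pair, and pairs were accepted there (each over 0.1). Between genotypes in Poly-E each same-numbered pair also passed this limit, but other numbers gave -0.568 to 0.591, a highest value above 3 of the 4 same-numbered ones, so pairing by number is in doubt there and the block is given as an alternative. In both cases replicates 1 and 2 stood apart from 3 and 4. In Ypel4+/+ numbers 1 and 2 gave 0.209 and 0.249 with each other, and 3 and 4 gave 0.390 and 0.379. Numbers across this split gave -0.445 to -0.324 there, and -0.568 to -0.134 between genotypes in Poly-E. The labels do not name this split, so the correlations do not reflect pairs alone.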

Additional observations from a re-analysis of the deposited data

Results flagged for a closer look

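Each of the 7 genes and the summed Snhg1 rows was looked over in 4 groups, 32 sets of 4 libraries, for a library far from the other 3, which chance gives in about 1 of 20 sets. There were 2 such libraries. Neat1 in replicate 3 of Ypel4+/+ Ortho-E stood at 724 CPM, with 519 CPM in the next library. Gas5 in replicate 1 of Ypel4+/+ Poly-E stood at 138 CPM, with 103 CPM in the next, and the same library held the highest Malat1 level of Poly-E, 1595 CPM. Without either library both genes stayed higher in Ypel4+/+ Ortho-E. When each of the 8 libraries was omitted, log2 fold changes were 2.29 to 2.68 for Neat1, 1.37 to 1.72 for Gas5 and 2.07 to 2.69 for Malat1, each called by edgeR in 8 of 8 fits.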

How the results depend on the processing

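In Ypel4+/+ mice 4 of the 7 genes were higher in Ortho-E in every alternative but library totals, which gave 2, and 2 were lower but for 4 by library totals and 1 with DESeq2 size factors, filterByExpr or DESeq2, the lost call being Snhg12. Leaving out a library gave 4 higher and 1 to 2 lower. In Ypel4-/- mice library totals gave 4 lower in place of 1. By library totals the sign turned for Snhg8 in Ypel4+/+ (-0.76) and for Snhg6 (-1.13), Snhg8 (-1.10) and Snhg12 (-1.01) in Ypel4-/-, and in the permutation tests for Snhg8 (-0.75 and -1.13) and Snhg12 (-0.94). The median gene of the library-total edgeR fits had -1.45 in Ypel4+/+ and -1.47 in Ypel4-/-. In the TMM permutation test Snhg6 turned to 0.0075 in Ypel4-/- with 2 CPM added. In Ypel4-/- Snhg8 was called higher with filterByExpr (0.46) and without Ypel4-/- Ortho-E replicate 1 (0.46). Between genotypes in Poly-E, 3 values near 0 turned: Gas5 to -0.0040 with DESeq2 size factors and -0.0039 with DESeq2, Neat1 to -0.0017, -0.00081 and, with the term for replicates, -0.0033, and Malat1 to 0.12 without Ypel4+/+ Poly-E replicate 1. With a library left out these ran from -0.044 to 0.13 for Gas5, -0.067 to 0.12 for Neat1 and -0.43 to 0.12 for Malat1. No genotype or interaction alternative called a member.

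With the replicate block and TMM no call of a member changed: 4 higher and 2 lower in Ypel4+/+, 3 higher and 1 lower in Ypel4-/- and 0 between genotypes. With the block on library totals, 3 were higher and 4 lower in Ypel4+/+, Gas5 (0.19) being the call gained over library totals alone, and 2 and 4 in Ypel4-/-, with signs turned from TMM for Snhg8 (-0.75 and -1.12) and, in Ypel4-/-, Snhg6 (-1.14) and Snhg12 (-1.005). Over all genes the block with TMM raised the calls between genotypes from 1 to 4 in Poly-E and from 3 to 15 in Ortho-E, and for the interaction from 0 to 1. Counts of other lists moved as well: in Ypel4+/+, DESeq2 size factors gave 6 of 7 myeloid markers and 3 of 14 decay factors higher, in place of 3 and 1. Depth limits Snhg6 and Snhg12, which had at most 49 counts in a library.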
